A study of Mus musculus with 6 samples.

Results

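A set of 56 mouse genes with provisional symbols, 41 higher and 15 lower in old, separated RNA libraries of apoptotic osteoblasts from young and old mice. The members were chosen by their values. A gene row qualified if its symbol was Gm followed by a number or ended in Rik, if it reached 1 RPKM in at least 3 of the 6 libraries, and if the lowest library of the higher group was at least 1.3 times the highest library of the lower group. RPKM is the number of reads scaled to the length of a gene's exons (per kilobase) and to the library's total. Of 29587 gene rows, 10912 carried such a symbol and 1960 of these reached the expression minimum, so the members were 0.189% of all rows. The difference between old and young that chose them is given as a description without a test.

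Gm symbols are placeholders for gene models that automated annotation predicted, and Rik symbols go back to full-length complementary DNA clones of the RIKEN project. Behind them stand long noncoding RNAs, processed pseudogenes (reverse-transcribed copies of messenger RNAs), predicted small RNAs, antisense transcripts and some protein-coding genes that had no name when the annotation was made. Many lie on, in or beside a named gene, and a short read from a shared stretch of exon matches both annotations.

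The study compared osteoblasts killed in culture, 3 libraries labelled young and 3 labelled old, and its title places them in work on how dying osteoblasts are cleared by phagocytes (efferocytosis) in aging. Bone fragments gave adherent marrow stromal cells, which were passaged 3 times, held 3 days in osteogenic medium and exposed to ultraviolet light for 0.5 h. All libraries share these steps. The genotype is labelled "none", and the ages behind young and old, the strain and the sex do not appear in the sources used here. Nothing in the labels ties the libraries of a group to separate mice or dishes, so limma's p-values for neighbouring genes measure only the spread between libraries, which may be technical. In bulk RNA, fewer cells of a type and less RNA per cell cannot be told apart.

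Depth, recovered from RPKM and exon length, was 64881180 to 84535939 reads per library. Even numbers made up 77.5 to 79.3% of the genes with 1 to 5 reads, so a read is not an independent molecule. Young replicate 1 stood apart, with Pearson's r of 0.949 and 0.962 to the other young libraries, which had 0.996 to each other, and with 1.05% mitochondrial reads against 1.62 to 2.29% elsewhere. Of 9 osteoblast markers, 7 reached 1 RPKM, with summed levels of 3105 to 4254 RPKM in young and 4025 to 4104 RPKM in old, while Alpl and Bglap did not reach it. The sum is mostly Col1a1, Col1a2 and Sparc, and it hides markers whose groups did not overlap. Sp7 was at 7.89 to 9.02 RPKM in young and 4.88 to 4.94 RPKM in old. Runx2 was at 4.18 to 5.66 and 3.67 to 4.03 RPKM, and Spp1 at 233 to 376 and 691 to 811 RPKM. Bglap, under 1 RPKM throughout, was also apart, at 0.39 to 0.459 RPKM in young and 0.641 to 0.9 RPKM in old. Leukocyte markers (8 rows, 2 reaching 1 RPKM, mostly Lyz2) summed to 7.97 to 9.28 RPKM in young and 8.58 to 10 RPKM in old, Ptprc was at or near 0, and none of the 8 endothelial, adipocyte and erythroid rows reached 1 RPKM.

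The sequences printed here show why the reads of many members cannot be assigned to them alone. Gm27533 and Gm24411 are predicted small RNA genes whose whole length lies in an exon of a longer noncoding RNA on the same strand, Neat1 and Snhg17. They are printed in lower case throughout because every base is shared by position with the host (chr19:5844286-5844437, minus strand, and chr2:158356424-158356554, minus strand, GRCm38, which is mm10).
Gm27533: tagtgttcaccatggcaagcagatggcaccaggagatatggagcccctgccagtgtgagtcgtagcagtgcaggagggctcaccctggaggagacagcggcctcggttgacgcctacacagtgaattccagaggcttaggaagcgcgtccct
Gm24411: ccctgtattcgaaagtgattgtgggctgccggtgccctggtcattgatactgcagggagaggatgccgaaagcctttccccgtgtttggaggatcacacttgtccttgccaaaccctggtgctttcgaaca
Gm24187 and Gm22933 are annotated as microRNA genes, and capitals mark the bases covered by stretches of 31 bases that also occur in transcripts of other genes (chr13:9834469-9834525, minus strand, and chr16:90953795-90953868, plus strand).
Gm24187: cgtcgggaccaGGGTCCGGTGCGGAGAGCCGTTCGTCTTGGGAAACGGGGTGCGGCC
Gm22933: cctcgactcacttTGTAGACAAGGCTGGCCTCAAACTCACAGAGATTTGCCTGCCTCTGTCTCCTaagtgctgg
Gm10801, Gm10800 and Gm10718, on chromosomes 2, 2 and 9, share a stretch of 57 bases whose letters are those of the mouse major satellite, the repeat around centromeres. It is given as it stands in Gm10801, and each of the 3 transcripts holds it once.
Shared stretch: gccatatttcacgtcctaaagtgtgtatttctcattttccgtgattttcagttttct
The transcripts are those of GENCODE M21.

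By GENCODE M21, the 41 higher members were 18 long noncoding RNAs, 8 pseudogenes, 7 small RNAs, 5 protein-coding models, 2 entries that await experiment (TEC) and 1 without a match by symbol. The 15 lower members held 3 protein-coding models, 3 small RNAs, 2 each of long noncoding RNAs, pseudogenes and TEC entries, and 3 without a match. The same separation held for 2.09% of the 1960 expressed Gm and Rik rows in the higher direction and 0.765% in the lower, against 2.5% and 0.577% of the 10055 other expressed rows and 2.43% and 0.608% of all 12015. The rule itself fixed these shares, and nothing is read from them. Among the higher members, 9 had under 20 reads in some library, as had 3 of the lower, with 3 reads as the smallest number. Some members passed the expression minimum only through the group where they are high. Under 1 RPKM in every young library were Gm43302, Gm20559, Gm43198, Gm2619, Gm16098, Gm12577, Gm10801 and Gm10718. So were Gm12945, Gm7785, Gm12571, 4930447F24Rik, E230016M11Rik, 1700052K11Rik and Gm15987. Under 1 RPKM in every old library were the lower members Gm24411, 1500015O10Rik and 5930420M18Rik.

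**Figure D1:**
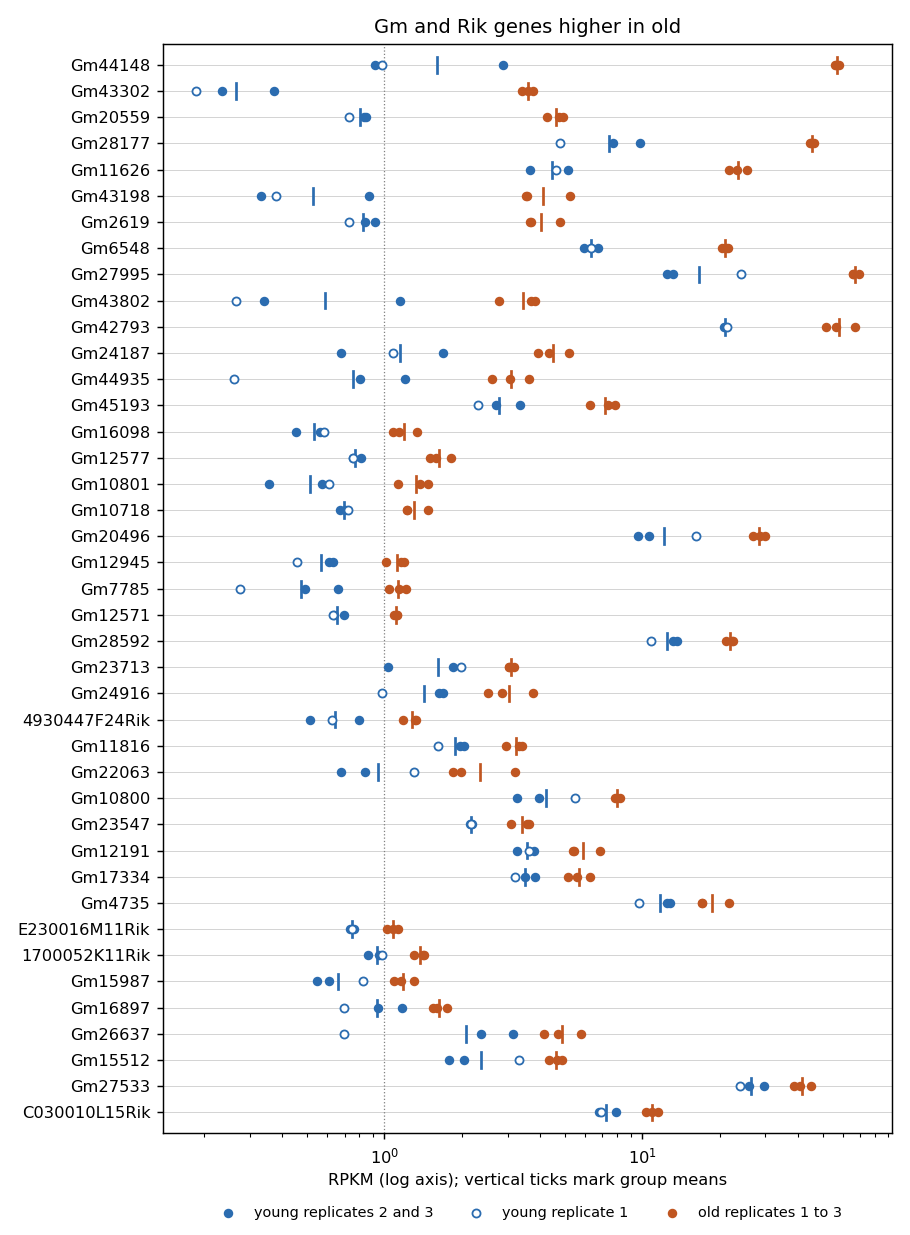
RPKM (log axis) of the 41 Gm and Rik genes higher in old, ordered by the fold between the nearest libraries of the groups, with each library as a point and group means as ticks. Gm44148 has the widest gap, from 2.89 RPKM in the highest young library to 55.7 RPKM in the lowest old library, and the groups never overlap because the members were chosen that way.

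Most of the higher members with the widest separation sat on or beside interferon-stimulated genes. Of the 41, 12 (29.3%) shared exon bases with a gene of a list of 109 interferon-stimulated genes, or had one as nearest neighbour within 100 kb, and these were 8 of the 10 members with the widest gap. In the remaining 31 it was 4 (12.9%), in the 15 lower members 0, and in the other 1904 expressed Gm and Rik rows 16 (0.8%). Of the listed genes, 83 reached the expression minimum, and limma called 75 of these higher and 0 lower in old, the median log2 fold change being 1.63 against 0.01 over all 12015 rows tested. Limma's calls are at an adjusted p under 0.05, which 1.47% of all tested rows met in the higher and 0.0999% in the lower direction. Without young replicate 1, limma called 1589 rows higher and 2329 lower of the 12015, and without any other single library 80 to 138 higher and 0 to 2 lower, against 177 and 12 with all libraries. The list was chosen with earlier results of these data known, and a listed gene that reached 1 RPKM in old alone entered the test through that group. The list's count and median are therefore a description and no independent evidence. The order by gap uses the values that chose the members. Many of the members near listed genes share exon bases with them. Gm20559 and Gm43198 overlap each other and count separately through the same neighbour, Samd9l. The shares of members near listed genes are therefore a description as well.

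Gm44148, a long noncoding RNA gene (chromosome 6, 121255203 to 121272685, minus strand, mm10), was at 0.975, 2.89 and 0.916 RPKM in young replicates 1, 2 and 3 and at 58, 55.7 and 56.5 RPKM in old replicates 1, 2 and 3. Its mean ratio of old to young was 35.6, and without young replicate 2, its highest young library, 60. Across its opposite strand runs Usp18, the protease that removes the ubiquitin-like protein Isg15 from its targets, and 124 of its 316 exon bases (39.2%) lie in a Usp18 exon. Usp18 was at 0.392, 0.743 and 0.281 RPKM in young and 17.6, 18.3 and 17.6 RPKM in old, so the row of Gm44148 had the higher RPKM in every library. Whether counting used strand is not known, so reads from the shared bases cannot be told apart. The order of the rows therefore does not rank the transcripts.

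Gm28177, a long noncoding model on chromosome 1, was at 4.78, 9.83 and 7.69 RPKM in young and 44.9, 44.6 and 46.4 RPKM in old. Its old libraries lay close together, while young replicate 1 was the lowest and young replicate 2 the highest of the young libraries.

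Gm11626 (chromosome 11, 101456576 to 101457390, minus strand) runs antisense to Ifi35, an interferon-induced protein, with 87.1% of its bases in Ifi35 exons. Its levels were 4.63, 5.15 and 3.66 RPKM in young and 23.2, 25.5 and 21.6 RPKM in old. Ifi35 went from 10.2, 7.13 and 6.37 RPKM in young to 33.9, 37.1 and 32.5 RPKM in old, with young replicate 1 the highest of its group. Vat1, whose end lies 1354 bases from Gm11626, averaged 15.8 ± 2.03 RPKM in young and 25.8 ± 1.05 in old (n = 3 each, SD) and missed limma's threshold (adjusted p = 0.0527).

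A further 2 higher members fell among the guanylate-binding protein genes, GTPases of defence inside infected cells. Gm43302 (chromosome 5, 105214907 to 105293695, minus strand), a protein-coding model over Gbp6 and Gbp10 on the same strand, was at 0.186, 0.374 and 0.235 RPKM in young and 3.4, 3.61 and 3.77 RPKM in old. It reached 1 RPKM in old alone, and 100% of its stretches of 31 bases occur in other genes, 95.7% in Gbp6. Gbp6 averaged 0.207 ± 0.0808 RPKM in young and 2.67 ± 0.117 in old (n = 3 each, SD), and Gbp10 stayed under 1 RPKM in every library. Gm43802 (chromosome 3, 142547882 to 142548518, plus strand), a processed pseudogene model wholly within a Gbp7 exon, was at 0.266, 1.15 and 0.341 RPKM in young and 3.7, 2.79 and 3.85 RPKM in old. Young replicate 2 was the highest young library of both, and without it the ratio of Gm43802 went from 5.87 to 11.3.

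On chromosome 6, Gm20559 (3333194 to 3346128, minus strand) and Gm43198 (3334633 to 3334958, plus strand) overlap each other, with all 326 bases of Gm43198 inside a Gm20559 exon. Gm20559, a long noncoding RNA gene, was at 0.726, 0.835 and 0.849 RPKM in young and 4.92, 4.26 and 4.75 RPKM in old. Gm43198, a TEC entry, was at 0.378, 0.869 and 0.333 RPKM in young and 5.26, 3.58 and 3.53 RPKM in old, from 8 to 22 reads per young library. Their nearest named neighbour is Samd9l, an interferon-induced restriction factor 26128 bases from Gm20559, at 1.62, 6.17 and 4.3 RPKM in young and 15.2, 13.2 and 16.2 RPKM in old (log2 fold change 1.77 ± 0.36 SE, limma adjusted p = 0.0952). Young replicate 1 was the lowest library of Samd9l and of Gm20559.

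Around Eif2ak2, which encodes the kinase PKR that senses double-stranded RNA, stood 2 members. Gm6548 (chromosome 17, 78850792 to 78851956, minus strand), a processed pseudogene 607 bases beyond the Eif2ak2 end, was at 6.3, 6.73 and 5.94 RPKM in young and 20.3, 21.4 and 21.2 RPKM in old. Gm26637 (78882042 to 78892500, plus strand), which RefSeq lists as protein coding, starts head to head with Eif2ak2 and shares 7.6% of its bases with it. Its levels were 0.694, 3.14 and 2.37 RPKM in young and 4.73, 4.14 and 5.77 RPKM in old, and young replicate 1 was far under the other young libraries. Eif2ak2 itself was at 13.3, 24.6 and 19.7 RPKM in young and 58.3, 56.3 and 62.8 RPKM in old, again with young replicate 1 lowest. Gm6548 resembles Eef1a1, the translation elongation factor, in 30.7% of its stretches of 31 bases, and Eef1a1 averaged 1307 ± 138 RPKM in young and 1278 ± 36.2 in old (n = 3 each, SD), so the source gene did not share the 3.32-fold ratio of the copy.

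**Figure D2:**
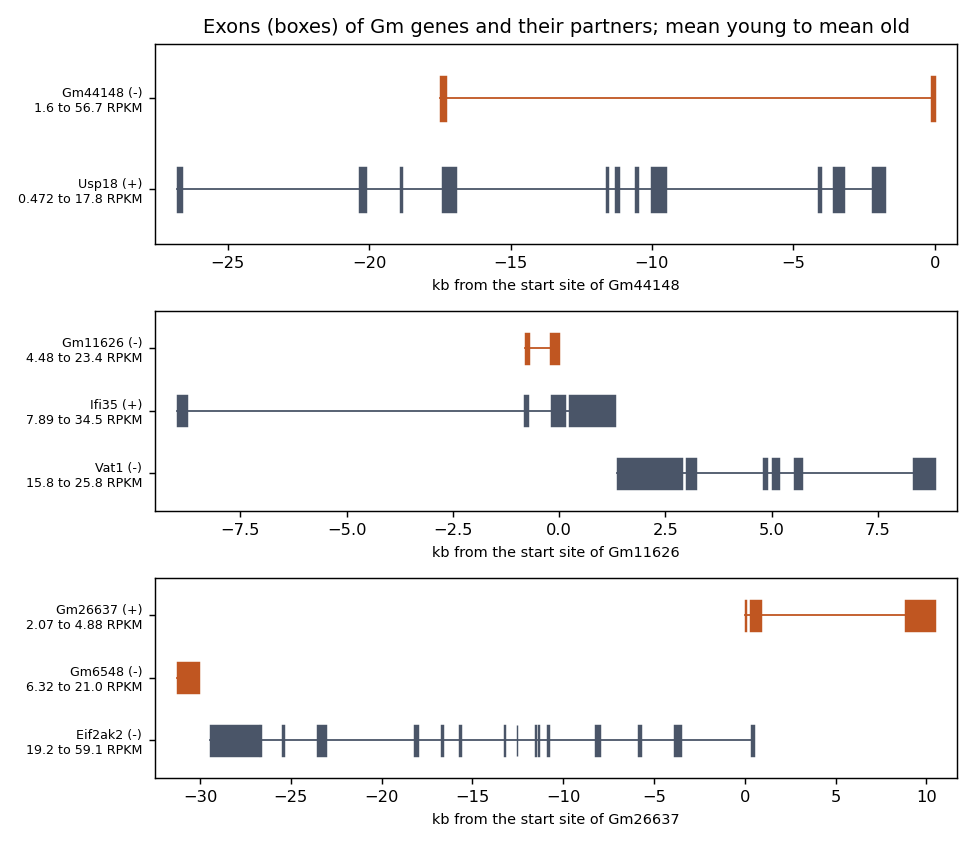
Exon maps of 3 loci, with Gm genes in orange and the named genes in grey, drawn to scale in kilobases from the start site of the first Gm gene, with mean RPKM in young and old at the left. Gm44148 and Gm11626 cross exons of Usp18 and Ifi35 on the other strand, and Gm26637 and Gm6548 lie at the start and beyond the end of Eif2ak2.

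The remaining members of the interferon loci were more moderate. Gm45193 (chromosome 6, 57485121 to 57626030, plus strand), with 81.8% of its bases in exons of Herc6, a ligase for Isg15 in the mouse, was at 2.31, 3.34 and 2.7 RPKM in young and 7.37, 6.24 and 7.84 RPKM in old. Gm20496, antisense to the immunoproteasome subunit Psmb8 and the peptide transporter subunit Tap2 in the histocompatibility region of chromosome 17, averaged 12.1 ± 3.51 RPKM in young and 28.4 ± 1.46 in old (n = 3 each, SD here and for the next genes). Gm17334, antisense to the transcription factor gene Irf1, averaged 3.51 ± 0.305 RPKM in young and 5.68 ± 0.552 in old. The genes under them, again young then old, averaged 6.43 ± 0.708 and 9.53 ± 0.254 RPKM (Irf1), 7.08 ± 2.64 and 17 ± 0.876 RPKM (Psmb8) and 1.39 ± 0.189 and 3.32 ± 0.3 RPKM (Herc6). Psmb8 had its highest young library in replicate 1, as did Gm20496, at 10.1 and 16.1 RPKM.

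Of the members with no listed interferon gene on them or as nearest neighbour within 100 kb, Gm2619 and Gm27995 had the widest gaps. Gm27995 (chromosome 7, 104340090 to 104340189, minus strand), a predicted small nuclear RNA of 100 bases wholly inside an exon of the tripartite motif gene Trim12c, was at 24.2, 12.5 and 13.1 RPKM in young and 65.9, 69.4 and 65.6 RPKM in old. Trim12c was at 2.56, 3.31 and 2.47 RPKM in young and 8.63, 8.52 and 9.83 RPKM in old, so young replicate 1 was the highest young library of the small gene but not of its host. Gm2619 (chromosome 1, 85156809 to 85327306, minus strand), a transcribed pseudogene, was at 0.726, 0.843 and 0.916 RPKM in young and 3.7, 3.66 and 4.78 RPKM in old. Of its stretches of 31 bases, 34.2% occur in Sp100, a nuclear body protein gene that is itself on the interferon list, which averaged 0.91 ± 0.0395 RPKM in young and 4.3 ± 0.227 in old (n = 3 each, SD).

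Other higher members lay over genes of bone matrix, signalling and nuclear structure. Gm42793 (chromosome 5, 104435121 to 104436372, plus strand), a TEC entry with 24.7% of its bases in exons of Spp1, the gene of the bone matrix protein osteopontin, was at 21.3, 21 and 20.7 RPKM in young and 56.2, 51.4 and 66.8 RPKM in old. Spp1 was far more abundant per length, at 376, 233 and 262 RPKM in young and 691, 694 and 811 RPKM in old. Gm28592 (chromosome 10, 111506575 to 111507662, minus strand) has 98.1% of its bases antisense to Phlda1 and was at 10.8, 13.6 and 13.1 RPKM in young and 21.1, 22.3 and 22.4 RPKM in old. Phlda1 averaged 6.8 ± 0.482 RPKM in young and 11.5 ± 0.409 in old (n = 3 each, SD), under the row of Gm28592 in both groups. Reads from the shared bases cannot be told apart, so this does not rank the transcripts. Gm15512 (chromosome 14, 33365951 to 33370143, minus strand), antisense over 63.3% of its bases to Arhgap22 was at 3.31, 2.03 and 1.78 RPKM in young and 4.33, 4.89 and 4.65 RPKM in old.

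Gm27533, the small gene in Neat1, was at 24, 25.9 and 29.6 RPKM in young and 44.9, 38.7 and 40.8 RPKM in old. Neat1, the noncoding scaffold of nuclear paraspeckles, was at 12.7, 12.6 and 13.6 RPKM in young and 21, 17.7 and 19.8 RPKM in old. The next gene on the same strand, Malat1, is also a nuclear noncoding RNA and averaged 330 ± 35.1 RPKM in young and 281 ± 4.04 in old (n = 3 each, SD), the opposite direction, without passing limma's test (adjusted p = 0.555). Gm27533 stood at the edge of the rule, with 1.31 between the nearest libraries, as did C030010L15Rik, antisense to B230307C23Rik, with 1.3, at 6.93, 7.9 and 6.81 RPKM in young and 11.5, 10.3 and 10.9 RPKM in old. Just outside were Gm17114 (1.28) and Gm684 (1.27).

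The other exon-overlapping members had mean ratios of 1.44 to 4.1. Gm44935, which RefSeq calls A930037H05Rik, had the largest of these and lies antisense to Rnf213, a large ubiquitin ligase gene. Gm16098 lies over the translation factor gene Eif6 (2.24), Gm12945 over the tektin gene Tekt2 (1.98), Gm10718 over Gm26870 (1.87), Gm15987 over Mir7649 (1.79), Gm16897 over Cd34, a surface marker of progenitor and endothelial cells (1.74), Gm23547 over the prohibitin gene Phb2 (1.59), 1700052K11Rik over the kinase gene Tlk2 (1.48) and E230016M11Rik over the stress gene Gadd45a (1.44). Gm44935 ran from 0.261 RPKM in young replicate 1 to 1.2 RPKM in young replicate 2, the widest relative range of these in the young group. Rnf213 was at 1.02, 2.38 and 1.8 RPKM in young and 7.71, 7.18 and 8.46 RPKM in old. Some overlaps were slight: 2.51% of the bases of Gm15987, 5.94% of Gm16897 with Cd34 and 8.77% of E230016M11Rik. Gm16098 shares more bases with Fam83c (45.1%) than with Eif6 (17.3%). Gm16897 shares more with A330023F24Rik (17.1%) than with Cd34. Fam83c and A330023F24Rik stayed under 1 RPKM in every library.

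Most pseudogenes among the higher members could be compared with a gene they resemble. Gm4735, with 89.5% of its stretches of 31 bases in the enolase gene Eno1, was at 9.72, 12.5 and 12.8 RPKM in young and 17.1, 17.1 and 21.6 RPKM in old. A larger share of its stretches, 94.9%, occurs in Eno1b, which was not compared. Eno1, a glycolytic enzyme, averaged 42.1 ± 0.818 RPKM in young and 72 ± 2.16 in old (n = 3 each, SD). Its log2 fold change was 0.76 ± 0.08 (SE, adjusted p = 0.00754 by limma, and 0.000233 to 0.0985 without single libraries). Gm12191, a copy of the ribosomal protein gene Rpl30, averaged 3.57 ± 0.283 RPKM in young and 5.87 ± 0.833 in old and shared all of its stretches of 31 bases with other genes, and it was compared only with another copy, Rpl30-ps10, at 0.919 ± 0.0408 RPKM in young and 1.42 ± 0.242 in old. Gm12577, Gm7785 and Gm12571 had mean ratios of 2.12, 2.37 and 1.7, and their nearest relatives did not share that size. Young and old means were 91.2 and 86.5 RPKM for Rsrc2, 26.7 and 26.4 RPKM for Zfp330 and 33.2 and 26.8 RPKM for Lsm6, which resemble Gm12577, Gm7785 and Gm12571 in that order. Those 3 copies had 10 to 91 reads per library.

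Small RNA models and satellite models made up most of the rest. Gm24187, which stands in no other gene, rested on 4, 3 and 8 reads in young and 25, 17 and 20 in old, which gave means of 1.15 ± 0.511 RPKM and 4.5 ± 0.631 (n = 3 each, SD). Gm23713 and Gm24916, predicted small nucleolar RNAs inside Zfp808 and the nucleolar protein gene Gnl3, and Gm22063, a predicted small nuclear RNA inside Cbfb, the partner of the osteoblast factor Runx2, had ratios of 1.91, 2.13 and 2.5 on 5 to 29 reads per library. Their hosts had ratios of 0.684 for Zfp808, 1.21 for Gnl3 and 0.787 for Cbfb. The satellite-bearing models Gm10801, Gm10800 and Gm10718 had ratios of 2.58, 1.89 and 1.87. Their reads cannot be assigned to a single copy of the repeat, and Gm10800 was the most abundant of them at 5.46, 3.98 and 3.27 RPKM in young and 7.8, 8.19 and 8.01 RPKM in old. Gm42418, a row that takes reads from ribosomal RNA and is no member, was at 1904, 1038 and 1184 RPKM in young and 1344, 1331 and 1309 RPKM in old, and its part in these values was not tested. Whether any member also takes reads from ribosomal RNA was not tested either.

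The last of the higher members, 4930447F24Rik inside Bsn and Gm11816 inside Clvs1, are noncoding genes in introns of genes expressed in neurons. Neither shared a stretch of 31 bases with another gene, so they were the only higher members with a matched transcript of which that is true. 4930447F24Rik was at 0.626, 0.797 and 0.514 RPKM in young and 1.18, 1.31 and 1.33 RPKM in old, and Gm11816 at 1.61, 2.04 and 1.96 RPKM in young and 3.33, 2.96 and 3.4 RPKM in old. Their hosts had ratios of 1.21 for Bsn and 0.953 for Clvs1.

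**Figure D3:**
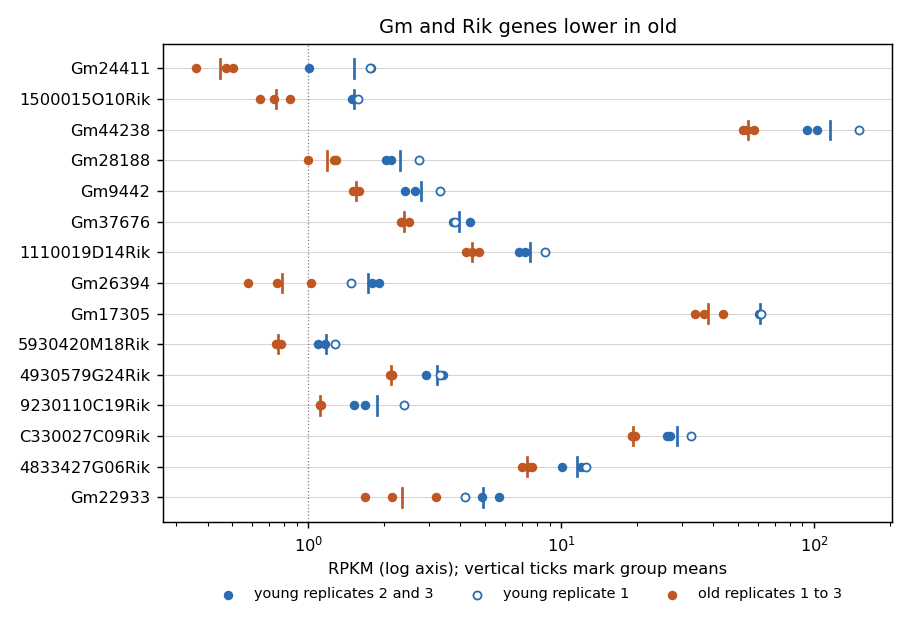
RPKM (log axis) of the 15 Gm and Rik genes lower in old, ordered by the fold between the nearest libraries, with each library as a point and group means as ticks. Gm24411 has the widest gap, a 2.00-fold step from 1.01 RPKM in the lowest young library to 0.506 RPKM in the highest old library, and young replicate 1 is the highest library for 10 of the 15.

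The 15 members lower in old had smaller gaps and no listed interferon gene on or beside them. The most abundant was Gm44238 (chromosome 6, 134928992 to 134930112, minus strand), a long noncoding RNA gene at 151, 94.1 and 103 RPKM in young and 57.7, 54.2 and 52.3 RPKM in old. It shares 45.3% of its bases with Lockd on the opposite strand, a noncoding RNA gene next to Cdkn1b, the gene of the cell cycle inhibitor p27. Lockd was at 10.9, 6.96 and 7.61 RPKM in young and 4.3, 4.06 and 3.82 RPKM in old, so both had their highest level in young replicate 1 and nearly the same ratio, 0.471 and 0.478. Cdkn1b, 3478 bases away, averaged 12.5 ± 2.73 RPKM in young and 10.2 ± 0.583 in old (n = 3 each, SD), with groups that overlapped.

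Gm24411, the predicted small nucleolar RNA inside Snhg17, a small nucleolar RNA host gene, was at 1.76, 1.77 and 1.01 RPKM in young and 0.361, 0.506 and 0.473 RPKM in old. These levels rest on 11 to 18 reads in young and 4 or 5 reads in old. Snhg17 was at 5.83, 5.94 and 6.05 RPKM in young and 7.18, 7 and 6.82 RPKM in old, so the host was above the small gene in every library and ran in the other direction.

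Gm17305 (chromosome 11, 69364019 to 69369408, plus strand), with 94.1% of its bases antisense to Chd3, a chromatin remodelling ATPase gene, was at 61.6, 60.6 and 61 RPKM in young and 33.7, 36.6 and 43.5 RPKM in old. Chd3 was at 12.3, 29 and 29.8 RPKM in young and 22, 20.3 and 22.8 RPKM in old, so young replicate 1 stood far under its group for Chd3 and not for Gm17305. Gm37676 (chromosome 1, 131932464 to 131932970, minus strand), wholly antisense to the chromatin-associated gene Nucks1, was at 3.8, 4.35 and 3.73 RPKM in young and 2.5, 2.35 and 2.32 RPKM in old. Nucks1 averaged 50.2 ± 1.3 RPKM in young and 39.3 ± 1.39 in old (n = 3 each, SD), and its groups did not overlap. 4930579G24Rik (chromosome 3, 79629079 to 79632820, plus strand), a protein-coding gene whose start lies against that of Etfdh, a mitochondrial dehydrogenase gene, was at 3.33, 3.41 and 2.93 RPKM in young and 2.14, 2.1 and 2.15 RPKM in old. Etfdh averaged 5.78 ± 0.422 RPKM in young and 5.12 ± 0.141 in old.

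RefSeq has since named 4 of the lower Rik genes, all protein coding. C330027C09Rik is now Cip2a (chromosome 16, 48994185 to 49019709, plus strand), an inhibitor of the phosphatase PP2A, and was at 32.5, 26.3 and 27 RPKM in young and 19, 19 and 19.6 RPKM in old on 8155 to 12753 reads, the most of the lower members. 1500015O10Rik is now Ecrg4 (chromosome 1, 43730602 to 43742578, plus strand), the gene of a secreted peptide precursor, and was at 1.57, 1.49 and 1.5 RPKM in young and 0.643, 0.735 and 0.851 RPKM in old. 9230110C19Rik is now Cfap300 (chromosome 9, 8021672 to 8042823, minus strand), a cilia and flagella protein gene, and was at 2.4, 1.68 and 1.52 RPKM in young and 1.12, 1.11 and 1.11 RPKM in old. 4833427G06Rik, now Hoatz (chromosome 9, 51081115 to 51102078, minus strand), also belongs to cilia and flagella and was at 12.5, 12 and 10.1 RPKM in young and 7.65, 7.37 and 6.99 RPKM in old. Ecrg4 and Hoatz shared no stretch of 31 bases with another gene, and no exon of the 4 overlapped another gene. Young replicate 1 was the highest library of each.

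**Figure D4:**
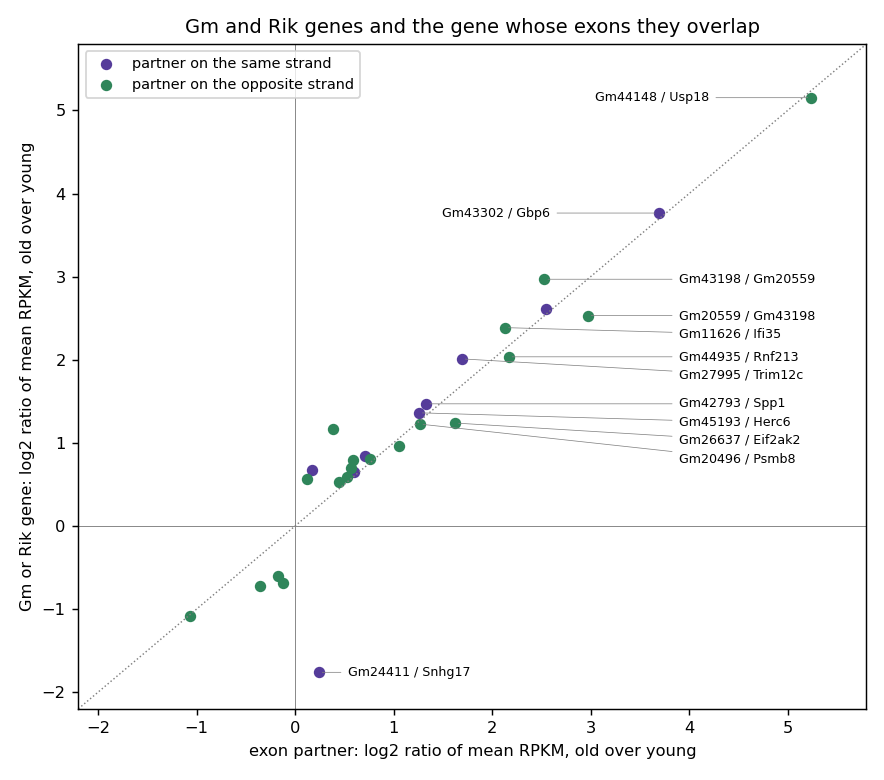
Log2 ratio of mean RPKM, old over young, of 28 Gm and Rik genes (vertical) against that of the expressed gene whose exons they share (horizontal), coloured by the partner's strand, with the line of equal ratios dotted. The ratio has the same sign in 27 pairs, and Gm24411 with its host Snhg17 is the exception.

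The other 6 lower members were a pair of pseudogenes, a pair of small RNA models, a long noncoding RNA gene and a TEC entry. Gm28188 and Gm9442, pseudogenes on chromosomes 1 and 3, rested on 20 to 42 and 36 to 70 reads per library. Gm28188 was at 2.74, 2.13 and 2.04 RPKM in young and 1, 1.29 and 1.26 RPKM in old, and Gm9442 at 3.33, 2.42 and 2.65 RPKM in young and 1.59, 1.5 and 1.55 RPKM in old. Ndufc1, a respiratory complex I gene 1514 bases from Gm9442, had overlapping groups with means of 30.1 ± 7.82 RPKM in young and 28.4 ± 0.876 in old (n = 3 each, SD). 1110019D14Rik, a long noncoding RNA gene over 13871526 to 14044385 of chromosome 6, was at 8.65, 6.81 and 7.18 RPKM in young and 4.2, 4.43 and 4.74 RPKM in old. 5930420M18Rik, a TEC entry inside Agbl5, was at 1.28, 1.17 and 1.09 RPKM in young and 0.747, 0.755 and 0.782 RPKM in old.

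Gm26394, a predicted small nucleolar RNA inside Top2a, the topoisomerase of dividing cells, was at 1.47, 1.9 and 1.78 RPKM in young and 1.03, 0.576 and 0.754 RPKM in old on 5 to 17 reads. Top2a was at 150, 154 and 155 RPKM in young and 115, 111 and 114 RPKM in old, and its log2 fold change was -0.43 ± 0.08 (SE, adjusted p = 0.0754 by limma). Gm22933, the microRNA model inside Synj1, was at 4.17, 4.87 and 5.7 RPKM in young and 3.2, 2.15 and 1.67 RPKM in old on 10 to 35 reads. It was the lower member nearest to the threshold, at 1.3, followed by 4833427G06Rik at 1.32. Gm29418 (1.29) and 0610009B22Rik (1.28) were just outside.

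Exon overlap with any other gene was found in 26 of the 41 higher members (63.4%) and 5 of the 15 lower (33.3%), against 61.9% of the other 1904 expressed Gm and Rik rows. Overlap with a gene that itself averaged 1 RPKM or more was found in 28 of the 56 (50%), against 56.8% of those other rows. In 13 members it took in at least 50% of the exon bases, and in 5 all of them. A position inside the span of another gene, without shared exon, was found in 9 higher members (22%) and 6 lower members (40%), against 12.8%. These shares are descriptions of small groups and no test of them was run.

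**Figure D5:**
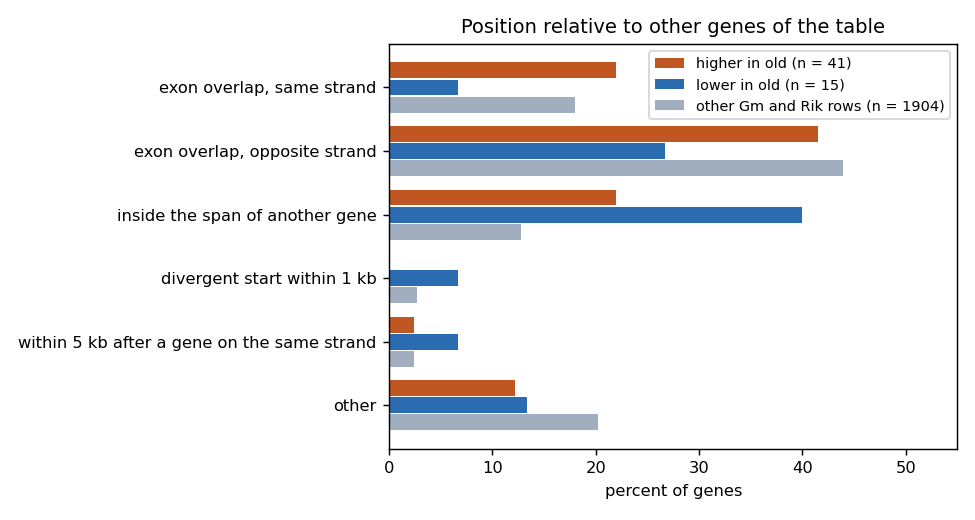
Percent of genes in each class of position relative to other genes of the table, for the 41 higher members, the 15 lower members and the other 1904 expressed Gm and Rik rows; each gene is counted in the first class that applies, from top to bottom. Exon overlap on either strand is the commonest class for higher members and other rows, and a position inside another gene's span for lower members.

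Of the 28 members that shared exons with an expressed gene, 27 had a ratio of the same sign as that gene. In 22 of the 28 that gene changed less than the member, and Tlk2, Phb2, Gadd45a and Chd3 had overlapping groups. The rule chose the members for a gap between the groups and did not choose the named partners so. That favours the larger change in the member, and nothing is read from the 22. The sign was not compared for the other Gm and Rik rows. Gm20559 and Gm43198 are among the 28, each the partner of the other, and their shared sign was fixed by the rule. The sign was the same in 19 of 19 pairs on opposite strands and 8 of 9 on the same strand. Of the 22 tested named genes under higher members, limma called 12 higher and 0 lower, and of the 5 under lower members 0 in either direction. Over all tested rows the shares were 1.47% higher and 0.0999% lower. The called genes included Usp18, Ifi35, Gbp6, Gbp7, Herc6, Rnf213, Trim12c, Eif2ak2, Spp1, Phlda1 and Arhgap22. Those of Gbp7, Herc6, Rnf213, Eif2ak2, Spp1, Phlda1 and Arhgap22 were lost in 4 or 5 of the 6 fits without a single library, all of these but Rnf213 also with the replicate number as a block, and that of Spp1 also under TMM and upper quartile scaling. The sources used here do not say whether counting used strand, so reads of a member and of an overlapping gene on either strand cannot be told apart. Partner and member are therefore not independent measures.

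Neighbours that share no exon with the member are a separate measure. For each member, the nearest named gene on either side within 100 kb was taken. For higher members this gave 54 genes, of which 32 were tested and 3 were called higher and 0 lower. Their median log2 fold change was 0.02, and 17 of 32 lay above 0. Over all 12015 tested rows, 1.47% were called higher and 0.0999% lower, with a median of 0.01. The called neighbours were Gbp3, Eif2ak2 and Tap1, all on the interferon list, which was chosen with earlier results of these data known. Gbp3, 11507 bases from Gm43802, was at 2.07, 3.11 and 1.46 RPKM in young and 59.8, 68.9 and 67.4 RPKM in old, and its log2 fold change was 4.40 ± 0.19 (SE, adjusted p = 0.000183 by limma). Tap1, a subunit of the transporter that loads peptides for class I molecules, lies 2090 bases from Gm20496 and rose by 0.88 ± 0.11 (SE, limma adjusted p = 0.0152). Eif2ak2, counted here as the neighbour of Gm6548, rose by 1.61 ± 0.21 (SE, limma adjusted p = 0.021), and it is also an exon partner of Gm26637. The Gbp3 call alone was kept without each single library, where its adjusted p was 3.87e-05 to 0.00417.

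Neighbours of the lower members were mostly not called. Of 26 genes near these members, 15 were tested, and their median log2 fold change was -0.02, with 7 of 15 above 0. The only call went upward: Layn, the gene of the hyaluronan receptor layilin, 4020 bases from 4833427G06Rik, was at 7.61, 11.5 and 11.4 RPKM in young and 20.7, 20.9 and 23.4 RPKM in old, and its log2 fold change was 1.04 ± 0.17 (SE, adjusted p = 0.0462 by limma). That call was lost in 5 of the 6 fits without a single library, where its adjusted p was 0.000453 to 0.253. Without young replicate 1, limma called 2 of the 15 higher and 4 lower, and 1589 higher and 2329 lower of all 12015 tested rows. Dzip3, whose start lies 19 bases from that of C330027C09Rik on the other strand, was at 1.26, 2.57 and 2.25 RPKM in young and 1.72, 1.34 and 1.97 RPKM in old, with overlapping groups.

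Promoter windows of RefSeq (250 bases before to 50 after a start, GRCm38.p6) were found for 15 members, 9 higher and 6 lower. They were searched on both strands. The core of the interferon-stimulated response element (GAAA, any 2 bases, GAAA) stood in 0 of the 15, and in 3.44% of 32851 windows in all. TTCNNNGAA, the interferon gamma activated site, stood in 1 of the 15, that of 4930447F24Rik, and in 8.3% of all windows. That window (chromosome 9, 108136605 to 108136904) lies inside the deposited row, which runs from 108133718 to 108138567 on the plus strand. The RefSeq start it belongs to is therefore not the start of that row. The window of Eif2ak2, which lies within the span of Gm26637, holds both motifs. It is shown because 1 member overlaps this gene and another lies beyond its end, with the motif matches in capitals (chr17:78882523-78882822, minus strand). Eif2ak2 is itself no member, and windows of the other overlapping genes are not given here.
Eif2ak2 promoter: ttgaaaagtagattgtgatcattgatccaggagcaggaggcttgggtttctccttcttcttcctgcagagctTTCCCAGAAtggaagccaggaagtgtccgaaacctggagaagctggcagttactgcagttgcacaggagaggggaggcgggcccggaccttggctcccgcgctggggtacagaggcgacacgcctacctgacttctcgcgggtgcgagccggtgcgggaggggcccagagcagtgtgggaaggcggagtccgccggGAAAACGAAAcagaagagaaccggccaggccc
The first capitals are the TTCNNNGAA match and the second the response element core. A match describes letters in a window and not a bound site.

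Young replicate 1 set the edge of the young group in part of the members. Among the 41 higher members it was the young library nearest to old in 12 and the farthest in 19, and among the 15 lower members the nearest in 2 and the farthest in 10. Without it, the same rule found 76 higher genes, including all 41, and 72 lower genes, including 12 of the 15. The counts without any of the other single libraries were 33 to 58 higher and 18 to 22 lower.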

How the data were processed

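The authors deposited RPKM per gene and library, with exon coordinates and gene length. Per the submitters' processing notes, fastp, STAR, HTSeq and edgeR were used on mm10; their versions, the annotation and the strand setting do not appear in the sources used here. RPKM times length gave whole reads for 100.0% of values (tolerance 0.01), which supplied the depths. Members and gene lists were chosen with earlier results of these data known. Named with every library's value were the 10 widest gaps, the 5 most abundant, the RefSeq coding genes and the 8 largest exon overlaps in each direction, with those at the threshold. The others were named to account for every member. Exon overlap and distance came from the deposited coordinates, and shared sequence from stretches of 31 bases in GENCODE M21 transcripts. Neighbours were tested with limma 3.58.1 (R 4.3.3) on log2(RPKM + 1), group only, over 12015 rows with 1 RPKM in at least 3 libraries, Benjamini-Hochberg adjusted, two-sided. Log2 fold changes are on that scale, which understates low genes. The fit was tested on simulated data. Alternatives were other folds, filters, pseudocounts (0.1, 0.5), scalings, voom, a replicate block and leaving out each library. An overlapping gene is not reported here by name.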

Additional observations from a re-analysis of the deposited data

How the results depend on the processing

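The 41 higher and 15 lower members became 24 and 5 at a fold of 1.5 between the nearest libraries and 157 and 171 where the groups only had to be apart. Without single libraries they were 33 to 76 and 18 to 72, and the highest counts came without young replicate 1. Leaving out a library also leaves fewer to reach 1 RPKM, which by construction removed members. TMM and upper quartile scaling each gave 40 higher genes, 33 and 32 of them among the 41, and 13 lower, 11 of them among the 15. Calls among neighbours of higher members numbered 3 with all libraries and 1 to 18 without single libraries, the 18 (10 higher, 8 lower) without young replicate 1. Those of lower members numbered 1 and then 0 to 6, the 6 (2 higher, 4 lower) again without young replicate 1. They fell to 0 with a pseudocount of 0.1, with no filter and with voom. The fit without young replicate 1 called 1589 higher and 2329 lower of all 12015 tested rows, so calls rose over all rows and not for neighbours alone. With the replicate number as a block, the calls among neighbours of higher and lower members were 1 and 0. The deviations of same-numbered libraries from their group means correlated at -0.03, -0.44 and 0.33. With 3 libraries per group, deviations from a group mean depend on each other, so these values cannot decide whether the numbers pair libraries. Exon overlap with an expressed gene fell from 28 members to 13 at 50% of the bases and to 9 on the same strand only. The causes were not tested. Members with under 20 reads in a library are limited by depth.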
